A study of Mus musculus with 14 samples.

Results

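Excitation-contraction coupling is the chain by which an action potential becomes a calcium release in a skeletal muscle fibre. 34 genes of this chain and of calcium handling were chosen by name: the voltage sensor of the T-tubule, the release channel and the proteins of the triad junction, the calcium store, pumps and a buffer, calcineurin, the CaMKII kinases, and calcium entry and exchange. Each was represented by array probe sets whose annotation names that gene alone. 33 of the 34 were measured, out of 19938 genes tested, and Itpr1 is named only.

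The study followed the plantaris, a calf muscle made mostly of fast fibres, of male C57BL/6J mice 25 months old while it was overloaded by synergist ablation, the surgical removal of the gastrocnemius and soleus that work with it. Days 0, 1, 3, 5, 7, 10 and 14 were sampled, and day 0 came from healthy animals of the same age, sex and strain. For each day the left plantaris muscles of 6 animals were pooled for 1 array and the right ones for another, which gave 14 Affymetrix Mouse Gene 1.0 ST arrays. No array is labelled as sham surgery, so surgery and load cannot be told apart. The 2 pools of a day are taken here to be the 2 legs of the same mice, so day and animals cannot be told apart either, and a p-value rests only on how far sides and arrays scatter.

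In a resting fibre, calcium is held in the sarcoplasmic reticulum by calsequestrin and other luminal proteins. A voltage sensor in the T-tubule membrane opens the ryanodine receptor of the facing reticulum at a junction called the triad, and a calcium pump then returns calcium to the store. Fast and slow fibres use different isoforms of several of these proteins, and calcium also acts through calmodulin on calcineurin and on CaM kinases, which are known to influence fibre type genes.

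4 promoter windows are shown here because they belong to genes whose courses are set against others below: the calsequestrins Casq1 and Casq2, and Rcan1, an inhibitor of calcineurin whose gene rose early while the subunits of calcineurin fell. Each window holds 250 bases before to 50 after a transcript start in RefSeq (GRCm38.p6), printed 5′ to 3′ on the strand of the gene. Capitals mark every match to the 5 motifs searched, which are spelled out after the sequences. The windows are chr1:172219846-172220145 on the minus strand for Casq1, chr3:102086165-102086464 on the plus strand for Casq2, chr16:92400029-92400328 on the minus strand for the inner Rcan1 start and chr16:92466120-92466419 on the minus strand for its upstream start.
Casq1: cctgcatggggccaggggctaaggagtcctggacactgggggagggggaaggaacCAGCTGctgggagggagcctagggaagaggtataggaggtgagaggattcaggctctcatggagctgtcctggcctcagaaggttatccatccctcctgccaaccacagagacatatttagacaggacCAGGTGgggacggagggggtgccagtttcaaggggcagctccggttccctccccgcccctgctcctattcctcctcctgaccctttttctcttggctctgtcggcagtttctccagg
Casq2: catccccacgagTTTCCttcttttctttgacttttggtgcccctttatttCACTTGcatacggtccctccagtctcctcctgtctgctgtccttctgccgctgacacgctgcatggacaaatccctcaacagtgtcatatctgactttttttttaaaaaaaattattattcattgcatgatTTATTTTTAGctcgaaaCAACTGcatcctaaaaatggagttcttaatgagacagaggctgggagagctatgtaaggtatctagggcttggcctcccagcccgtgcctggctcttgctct
Rcan1, inner start: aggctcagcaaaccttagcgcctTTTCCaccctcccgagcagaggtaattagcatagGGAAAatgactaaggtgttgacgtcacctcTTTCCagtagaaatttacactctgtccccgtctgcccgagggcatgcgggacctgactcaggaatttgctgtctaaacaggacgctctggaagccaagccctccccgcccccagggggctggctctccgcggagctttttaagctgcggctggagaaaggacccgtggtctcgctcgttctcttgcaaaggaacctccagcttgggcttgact
Rcan1, upstream start: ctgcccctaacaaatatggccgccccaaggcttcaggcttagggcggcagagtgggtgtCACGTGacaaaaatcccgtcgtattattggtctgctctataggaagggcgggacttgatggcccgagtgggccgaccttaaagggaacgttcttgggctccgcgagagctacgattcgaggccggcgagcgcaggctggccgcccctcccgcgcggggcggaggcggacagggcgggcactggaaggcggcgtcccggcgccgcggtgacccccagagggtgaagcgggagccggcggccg
Casq1 holds E-boxes at bases 56 and 184 of its window, and Casq2 holds E-boxes at bases 51 and 199, a MEF2 site at base 182 and an NFAT core at base 13. The inner Rcan1 window holds NFAT cores at bases 24, 58 and 88, and the upstream window holds an E-box at base 60 and no NFAT core. The inner Rcan1 start is known as the one that calcineurin and NFAT drive, and the array value below does not separate the transcripts of the 2 starts. Both strands were searched for the E-box (CANNTG), the NFAT core (GGAAA), the MEF2 site (YTAWWWWTAR), the MCAT element (CATTCC) and the CArG box (CCWWWWWWGG). In these, N is any base, Y is C or T, R is A or G, and W is A or T. Overlapping matches were each counted. 21 of the 34 members had 26 windows in the table. An E-box was in 18 of the 26 windows, against 72.3% of 32851 windows of all genes, and an NFAT core in 13 of 26, against 61.3%. The 2 windows of Jph2 overlap, so the same E-box and the same NFAT core are counted in both. A MEF2 site was in 2 of 26, those of Casq2 and Pvalb, against 3.19%, an MCAT element in 1 of 26, against 14.7%, and a CArG box in 0 of 26, against 1.63%. A match is a run of letters and not a binding site.

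Array values are log2 signals per probe set, on a scale that ran from 2.35 to 14.8. Array medians lay between 8.25 and 8.42 over the genes tested, and the pools of a day correlated across genes, which are not independent replicates, at 0.994 to 0.997. Differences are given on the log2 scale with the standard error of limma (n = 2 arrays a day), and a gene was called when its Benjamini-Hochberg adjusted p, taken over the 19938 genes, was under 0.05. Where 2 values are given for a day, the left pool comes before the right. The level of one probe set cannot be set against that of another. In tissue RNA, fewer fibres and less RNA per fibre cannot be told apart.

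Most members were lower during overload, the fall was deepest on days 3 and 5, and it was smaller again by day 14. On day 1, 24 of 33 members were called lower, where 22.6% of all genes were, and 2 higher, where 22.3% of all genes were. On day 3 the counts were 24 lower (26.6% of all genes) and 5 higher (24.1%), and on day 5 they were 23 lower (33.7%) and 5 higher (26.4%). On day 7 they were 22 lower (36.3%) and 6 higher (26.6%), and on day 10 they were 21 lower (34.3%) and 5 higher (25.9%). By day 14 the counts were 14 lower (30.5%) and 7 higher (22.9%). The median difference of the 33 members from day 0 was -0.59, -0.84, -0.83, -0.54, -0.44 and -0.20 on days 1, 3, 5, 7, 10 and 14, where the median of all genes was 0.04, -0.07, -0.12, -0.14, -0.13 and -0.11. With the arrays shifted to equal medians over all genes, the median of all genes moved by a further -0.13 on day 5, and the split of called members on day 14 became 19 lower and 4 higher.

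At least 2-fold lower were 9, 12, 13, 10, 7 and 3 members on the 6 overload days, where 3.16%, 4.51%, 5.06%, 4.24%, 3.92% and 2.16% of all genes were. At least 2-fold higher were 1, 0, 1, 3, 3 and 3 members, where 4.92%, 7.59%, 8.79%, 8.57%, 8.1% and 6.06% of all genes were. The moderated F test over all days was called for 31 of 33 members, where 79.5% of all genes were called. 14 members were lower on all 6 overload days, where 11.8% of all genes were: Cacna1s, Stac3, Ryr1, Jph1, Jph2, Jsrp1, Srl, Hrc, Ppp3ca, Ppp3cb, Camk2a, Camk2g, Stim1 and Slc8a3. The day 14 call of Srl was lost after quantile normalization and without single arrays, as given below. Of 26 members that were lower on at least 1 day, 5 had their lowest mean on day 1, 13 on day 3 and 8 on day 5. 8 members were higher on at least 1 day: Asph, Casq2, Atp2a2, Atp2b1, Sln, Rcan1, Camk2d and Itpr3.

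**Figure D1:**
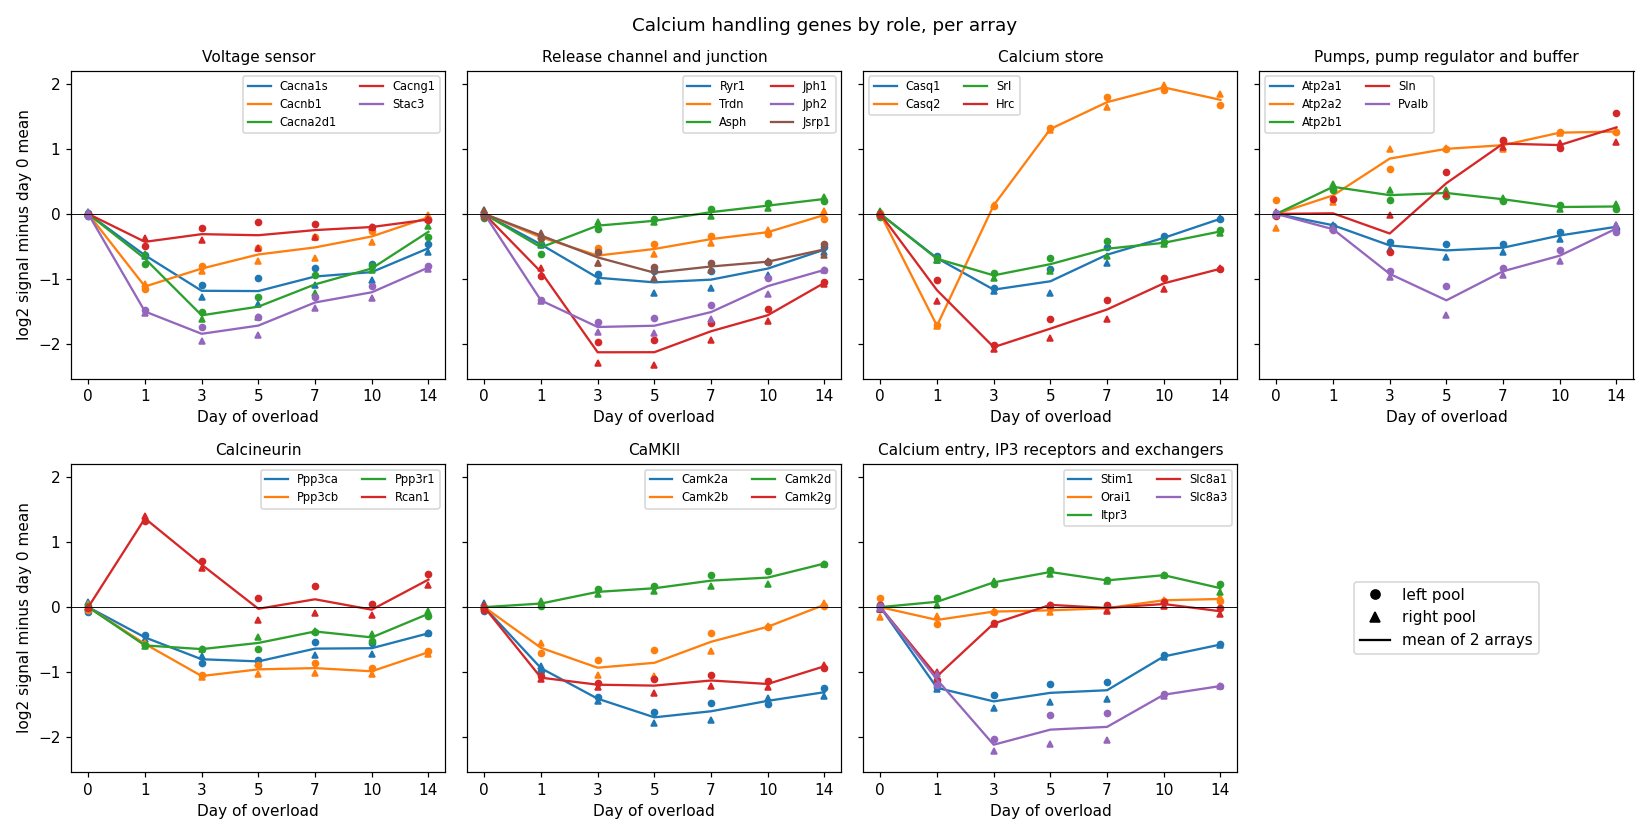
Log2 signal minus the mean of day 0 for each measured member by day of overload, with 1 panel per role, circles for left and triangles for right pools, lines through the mean of the 2 arrays, and days spaced evenly. Most lines dip on days 1 to 5 and climb toward day 14, while Casq2, Atp2a2, Sln and Camk2d end above day 0.

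The voltage sensor genes fell together and recovered unevenly. All 5 were lower on days 1, 3 and 5, of which Cacng1 by calls that rest on single arrays, 4 were lower on days 7 and 10, and 2, Cacna1s and Stac3, were lower on day 14. Cacna1s encodes the pore-forming subunit of the L-type calcium channel, the voltage sensor itself. Its log2 signals were 13.30 and 13.29 on day 0, 12.66 and 12.66 on day 1, 12.21 and 12.02 on day 3, 12.31 and 11.91 on day 5, 12.46 and 12.20 on day 7, 12.52 and 12.28 on day 10, and 12.83 and 12.70 on day 14. Every overload array lay below both day 0 arrays, and the gene fell by 1.19 ± 0.13 on day 5, which is 2.27-fold (adjusted p = 7.5e-06), and by 0.53 ± 0.13 on day 14 (adjusted p = 0.00567).

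Cacnb1, the intracellular beta subunit that brings the channel to the membrane, had 11.40 and 11.38 on day 0, 10.23 and 10.32 on day 1, 10.59 and 10.51 on day 3, 10.87 and 10.66 on day 5, 11.04 and 10.71 on day 7, 11.12 and 10.96 on day 10, and 11.31 and 11.37 on day 14. It was lowest on day 1, when it fell by 1.12 ± 0.11 (adjusted p = 3.7e-06), and it climbed on each later day to a difference of -0.05 ± 0.11 on day 14 (adjusted p = 0.697), although all 12 overload arrays lay below day 0. Cacna2d1, the extracellular alpha-2/delta subunit, had 12.73 and 12.79 on day 0, 11.99 and 12.15 on day 1, 11.25 and 11.15 on day 3, 11.49 and 11.18 on day 5, 11.82 and 11.54 on day 7, 11.95 and 11.89 on day 10, and 12.40 and 12.57 on day 14. It fell by 1.56 ± 0.12 on day 3, 2.94-fold (adjusted p = 2.7e-07), and stood at -0.27 ± 0.12 on day 14 (adjusted p = 0.0672). A second Cacna2d1 probe set gave -1.51 on day 5, where the first gave -1.42. On day 14 the second gave -0.34, which was called lower (adjusted p = 0.0299). The mean of both was also called on day 14 (-0.31, adjusted p = 0.0396), as was the first with equal array medians (-0.39, adjusted p = 0.0106).

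Stac3, an adaptor without which the voltage sensor does not trigger release, showed the deepest fall of the role. Its log2 signals were 11.58 and 11.65 on day 0, 10.13 and 10.10 on day 1, 9.88 and 9.67 on day 3, 10.04 and 9.76 on day 5, 10.34 and 10.17 on day 7, 10.50 and 10.32 on day 10, and 10.82 and 10.77 on day 14. No overload array reached day 0. Stac3 fell by 1.84 ± 0.11 on day 3, 3.58-fold (adjusted p = 3.6e-08), and by 0.82 ± 0.11 on day 14 (adjusted p = 5.0e-05). Cacng1, the gamma subunit, had 12.60 and 12.61 on day 0, 12.12 and 12.24 on day 1, 12.39 and 12.20 on day 3, 12.48 and 12.08 on day 5, 12.46 and 12.26 on day 7, 12.41 and 12.40 on day 10, and 12.51 and 12.53 on day 14. All overload arrays lay below day 0, but the F test did not call it (adjusted p = 0.0558). It fell by 0.43 ± 0.12 on day 1 (adjusted p = 0.00992), and its call on day 5 (-0.33 ± 0.12, adjusted p = 0.0305) rested on the right pool: the difference was -0.13 without it (adjusted p = 0.348) and -0.53 without the left pool. It was not called without a day 0 array either (adjusted p = 0.0788 and 0.0971). The day 3 call (-0.31 ± 0.12, adjusted p = 0.0442) ended after quantile normalization (-0.23, adjusted p = 0.135), without the right pool of day 3 (-0.22, adjusted p = 0.249) and without any 1 pool of days 0, 10 or 14 (adjusted p between 0.0537 and 0.128), and the day 1 call ended without the left pool of day 1 (-0.37, adjusted p = 0.0663).

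Most junction genes fell, among them both membrane tethers. Of 6 genes, 6 were lower on day 1, 5 on each of days 3 to 10, and 4 on day 14, when Asph was higher. Of all genes, 22.6%, 26.6%, 33.7%, 36.3%, 34.3% and 30.5% were lower on the 6 overload days, and 22.9% were higher on day 14. Ryr1, the ryanodine receptor that releases calcium, had 13.48 and 13.52 on day 0, 13.04 and 13.02 on day 1, 12.57 and 12.47 on day 3, 12.62 and 12.28 on day 5, 12.62 and 12.36 on day 7, 12.76 and 12.56 on day 10, and 12.99 and 12.91 on day 14. All overload arrays were below day 0, with the lowest pair on day 5. Ryr1 fell by 1.05 ± 0.12 on day 5, 2.07-fold (adjusted p = 7.1e-06), and by 0.55 ± 0.12 on day 14 (adjusted p = 0.00201).

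Jph1 and Jph2 encode junctophilins, which tether the T-tubule to the reticulum. Jph1 had 12.96 and 12.99 on day 0, 12.02 and 12.14 on day 1, 11.00 and 10.69 on day 3, 11.04 and 10.66 on day 5, 11.30 and 11.04 on day 7, 11.51 and 11.32 on day 10, and 11.93 and 11.89 on day 14. The signal on day 3 was 4.36-fold below day 0 (a fall by 2.13 ± 0.14, adjusted p = 7.4e-08), the largest of the 33 members on that day beside the 2.11 ± 0.15 of Slc8a3, and Jph1 was still lower on day 14, by 1.06 ± 0.14 (adjusted p = 4.5e-05). Jph2, the junctophilin that the heart uses, had 11.37 and 11.40 on day 0, 10.07 and 10.04 on day 1, 9.73 and 9.57 on day 3, 9.78 and 9.55 on day 5, 9.98 and 9.77 on day 7, 10.39 and 10.16 on day 10, and 10.52 and 10.53 on day 14. It fell by 1.74 ± 0.11 on day 3, 3.33-fold (adjusted p = 4.9e-08), and by 0.86 ± 0.11 on day 14 (adjusted p = 3.0e-05). Arrays of both junctophilins stayed below day 0 throughout. Their second probe sets moved alike, by -1.95 for Jph1 and -1.87 for Jph2 on day 5, where the first gave -2.12 and -1.72.

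Trdn encodes triadin, which links the release channel to calsequestrin. Its brightest probe set had 13.65 and 13.67 on day 0, 13.29 and 13.32 on day 1, 13.13 and 12.91 on day 3, 13.19 and 13.05 on day 5, 13.33 and 13.22 on day 7, 13.35 and 13.41 on day 10, and 13.58 and 13.71 on day 14. It fell by 0.64 ± 0.09 on day 3 (adjusted p = 6.1e-05) and was not called on day 14, with a difference of -0.02 ± 0.09 (adjusted p = 0.891) and arrays that overlapped those of day 0. 19 probe sets name Trdn alone and all 19 were lower on day 5, by between -0.54 and -2.67 with a median of -1.28, so the brightest showed the smallest fall. The mean over the 19 was -1.51 on day 3 and -0.51 on day 14 (adjusted p = 0.0227), which is called. Jsrp1, a junctional protein that binds the voltage sensor and calsequestrin, had 9.95 and 10.06 on day 0, 9.63 and 9.71 on day 1, 9.42 and 9.25 on day 3, 9.18 and 9.02 on day 5, 9.24 and 9.15 on day 7, 9.26 and 9.28 on day 10, and 9.54 and 9.38 on day 14. It was lowest on day 5, when it fell by 0.90 ± 0.09 (adjusted p = 2.7e-06), and no overload array reached day 0.

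Asph is the gene of junctin, another partner of the release channel, and also of other products, among them a hydroxylase made in many cell types. The array value does not separate them. Its log2 signals were 10.66 and 10.79 on day 0, 10.11 and 10.32 on day 1, 10.50 and 10.60 on day 3, 10.64 and 10.60 on day 5, 10.81 and 10.70 on day 7, 10.90 and 10.81 on day 10, and 10.93 and 10.98 on day 14. Arrays of days 1, 3 and 5 lay below day 0, those of day 7 overlapped it, and those of days 10 and 14 lay above it. Asph fell by 0.51 ± 0.09 on day 1 (adjusted p = 3.5e-04) and rose by 0.23 ± 0.09 on day 14 (adjusted p = 0.0425), a call that rests on single arrays. It ended without the left pool of day 0 (0.16, adjusted p = 0.216), without the left or the right pool of day 14 (0.25 and 0.21, adjusted p = 0.0779 and 0.165), without any pool of day 5 or 10 (adjusted p = 0.0551 and 0.0524) and with equal array medians (0.11, adjusted p = 0.273).

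The calcium store showed the widest contrast among the members. Casq1, Srl and Hrc fell and then climbed, while Casq2 fell on day 1 and then rose far above day 0. Casq1 encodes the main calsequestrin of fast fibres, the calcium-binding protein of the store. It had 13.80 and 13.84 on day 0, 13.17 and 13.11 on day 1, 12.68 and 12.63 on day 3, 12.97 and 12.60 on day 5, 13.32 and 13.07 on day 7, 13.49 and 13.41 on day 10, and 13.74 and 13.75 on day 14. It fell by 1.16 ± 0.11 on day 3, 2.24-fold (adjusted p = 2.3e-06), and stood at -0.07 ± 0.11 on day 14 (adjusted p = 0.592).

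Casq2 encodes the calsequestrin of heart and slow fibres. Its log2 signals were 9.74 and 9.72 on day 0, 8.02 and 8.01 on day 1, 9.85 and 9.87 on day 3, 11.06 and 11.01 on day 5, 11.52 and 11.37 on day 7, 11.63 and 11.71 on day 10, and 11.40 and 11.57 on day 14. Both day 1 arrays were far below day 0, both day 3 arrays were slightly above it, and the arrays of days 5 to 14 were all well above. Casq2 fell by 1.72 ± 0.08 on day 1, 3.29-fold (adjusted p = 8.9e-09), stood at 0.13 ± 0.08 on day 3 (adjusted p = 0.191) and rose by 1.30 ± 0.08 on day 5 and 1.94 ± 0.08 on day 10, when it was 3.84-fold above day 0 (adjusted p = 2.3e-09). Day 14 exceeded day 0 by 1.75 ± 0.08 (adjusted p = 7.6e-09). Casq2 was also the only member called between days 5 and 7, by 0.41 (adjusted p = 0.0336), where 0.401% of all genes were called higher.

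Hrc, a histidine-rich calcium-binding protein of the store, had 11.76 and 11.79 on day 0, 10.76 and 10.44 on day 1, 9.76 and 9.69 on day 3, 10.15 and 9.87 on day 5, 10.45 and 10.16 on day 7, 10.79 and 10.62 on day 10, and 10.93 and 10.93 on day 14. Srl, or sarcalumenin, a luminal glycoprotein that binds calcium, had 13.07 and 13.15 on day 0, 12.44 and 12.40 on day 1, 12.21 and 12.12 on day 3, 12.44 and 12.24 on day 5, 12.69 and 12.46 on day 7, 12.68 and 12.65 on day 10, and 12.86 and 12.82 on day 14. Arrays of both genes lay below day 0 on every overload day. Hrc fell by 2.05 ± 0.13 on day 3, 4.13-fold (adjusted p = 6.0e-08), and by 0.84 ± 0.13 on day 14 (adjusted p = 1.7e-04). Srl fell by 0.94 ± 0.09 on day 3 (adjusted p = 2.2e-06) and by 0.27 ± 0.09 on day 14 (adjusted p = 0.0257). The day 14 call of Srl was lost without day 0's right pool (-0.23) and without the left or right pool of day 14 (-0.29 and -0.25). Quantile normalization ended it too (-0.20, adjusted p = 0.0761).

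Pump, regulator and buffer genes went both ways, with Atp2a1 and Pvalb lower and Atp2a2 and Sln higher. Of 5 genes, 0 were lower on day 1, 2 on each of days 3 to 10 and 0 on day 14. On the 6 overload days, 1, 2, 2, 3, 2 and 2 were higher. Over all genes, 33.7% were lower and 26.4% higher on day 5, so the day 5 counts of this role lie near those shares. Atp2a1 encodes SERCA1, the calcium pump of fast fibres. It had 14.36 and 14.38 on day 0, 14.19 and 14.20 on day 1, 13.94 and 13.83 on day 3, 13.90 and 13.72 on day 5, 13.91 and 13.79 on day 7, 14.09 and 13.99 on day 10, and 14.15 and 14.20 on day 14. These values lie near the top of the scale, and all overload arrays were slightly below day 0. Atp2a1 fell by 0.56 ± 0.08 on day 5, 1.47-fold (adjusted p = 9.0e-05), and stood at -0.20 ± 0.08 on day 14 (adjusted p = 0.0649). Its day 14 value was called lower after quantile normalization (-0.27, adjusted p = 0.0119) and with equal array medians (-0.32, adjusted p = 0.00558). So was its day 1 value after quantile normalization (-0.26, adjusted p = 0.0157).

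Atp2a2 encodes SERCA2, the pump of slow fibres and heart, which in another form is made in most cells. It had 11.71 and 11.27 on day 0, 11.87 and 11.67 on day 1, 12.18 and 12.49 on day 3, 12.48 and 12.50 on day 5, 12.61 and 12.48 on day 7, 12.75 and 12.73 on day 10, and 12.75 and 12.76 on day 14. The 2 arrays of day 0 differed by more than those of most days, and the arrays of days 3 to 14 lay above both. Atp2a2 rose by 0.85 ± 0.13 on day 3 (adjusted p = 1.6e-04) and by 1.26 ± 0.13 on day 14, when it was 2.40-fold above day 0 (adjusted p = 8.2e-06).

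Sln encodes sarcolipin, a small inhibitor of SERCA. Its log2 signals were 7.22 and 7.29 on day 0, 7.49 and 7.04 on day 1, 6.67 and 7.24 on day 3, 7.89 and 7.56 on day 5, 8.39 and 8.28 on day 7, 8.28 and 8.35 on day 10, and 8.80 and 8.37 on day 14. Arrays of days 1 and 3 overlapped those of day 0, and arrays from day 5 on lay above them. Sln stood at 0.47 ± 0.20 on day 5 (adjusted p = 0.0579, and 0.0370 after quantile normalization) and rose by 1.08 ± 0.20 on day 7 (adjusted p = 5.2e-04) and by 1.33 ± 0.20 on day 14, 2.51-fold (adjusted p = 1.4e-04).

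Pvalb encodes parvalbumin, a calcium buffer of the cytosol of fast fibres. It had 14.15 and 14.13 on day 0, 13.89 and 13.92 on day 1, 13.26 and 13.18 on day 3, 13.04 and 12.59 on day 5, 13.31 and 13.21 on day 7, 13.58 and 13.42 on day 10, and 13.87 and 13.97 on day 14. All overload arrays were below day 0, and the lowest were those of day 5, when Pvalb fell by 1.33 ± 0.12, 2.51-fold (adjusted p = 1.0e-06). By day 14 the difference was -0.22 ± 0.12 (adjusted p = 0.131), and with equal array medians it was -0.34, which was called (adjusted p = 0.0203). Atp2b1, a calcium pump of the plasma membrane found in most cells, had 11.47 and 11.49 on day 0, 11.85 and 11.95 on day 1, 11.70 and 11.84 on day 3, 11.76 and 11.85 on day 5, 11.69 and 11.73 on day 7, 11.62 and 11.56 on day 10, and 11.56 and 11.64 on day 14. All of its overload arrays were above day 0, and it rose by 0.42 ± 0.08 on day 1 (adjusted p = 7.0e-04). The later calls were small: with equal array medians the difference on day 3 was 0.19 (adjusted p = 0.0509) and on day 7 it was 0.08 (adjusted p = 0.357), the day 7 call ended without any pool of days 0 and 7 (between 0.20 and 0.25, adjusted p between 0.0563 and 0.0992), and on day 3 it was 0.22 without the right pool of that day (adjusted p = 0.0763).

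**Figure D2:**
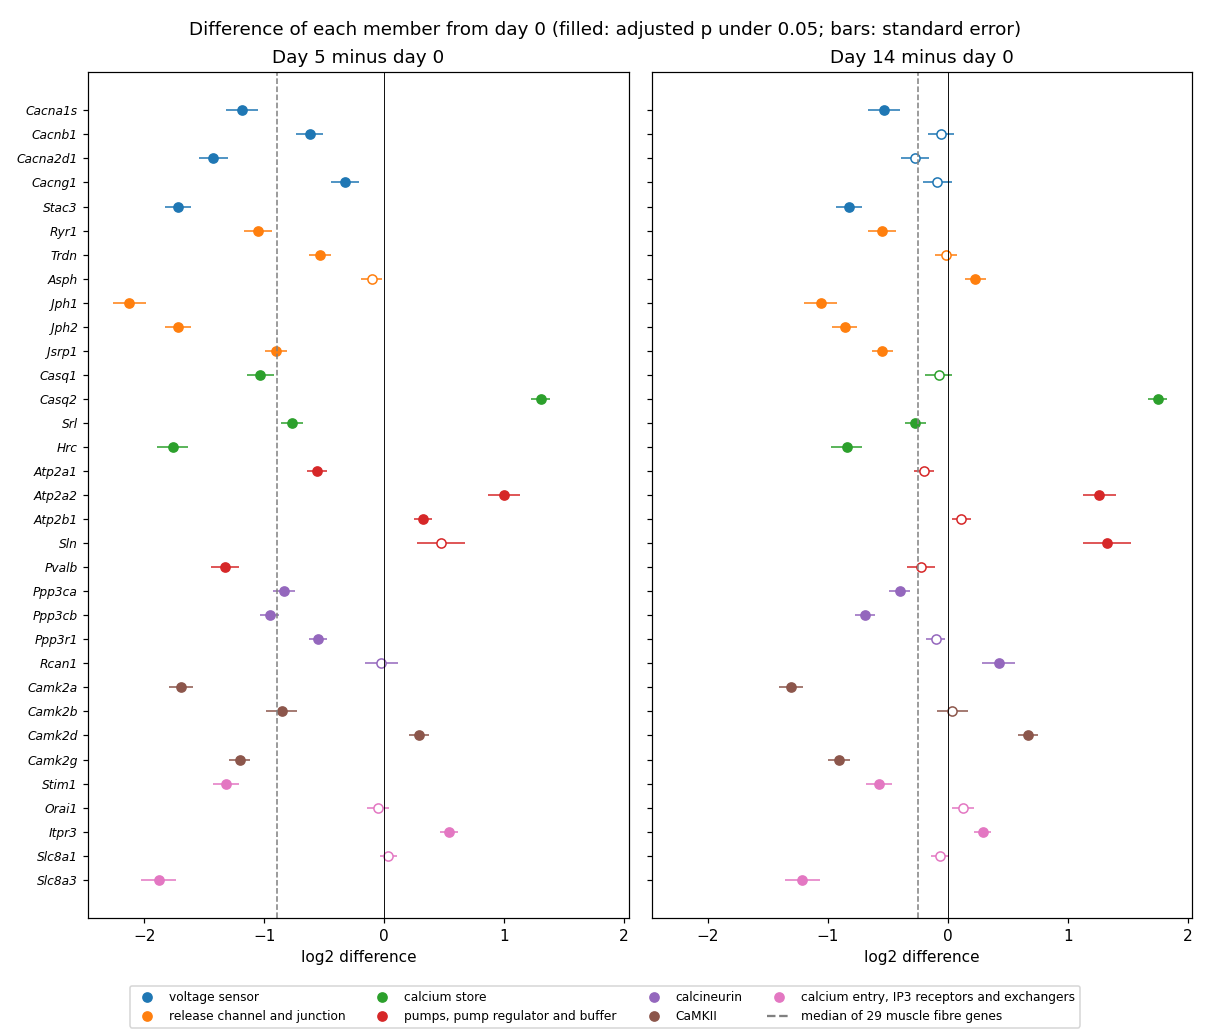
Log2 difference from day 0 of each measured member on day 5 (left panel) and day 14 (right panel), coloured by role, with bars for the standard error, filled points for adjusted p under 0.05 and a dashed line at the median of 29 muscle fibre genes. Points on day 14 lie nearer to 0 for most members that were lower on day 5, and Casq2, Atp2a2 and Sln lie furthest above 0.

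Calcineurin subunits fell together while the gene of their inhibitor rose early. Ppp3ca and Ppp3cb encode the catalytic subunits of calcineurin, the phosphatase that calcium and calmodulin activate. Ppp3ca had 11.90 and 12.06 on day 0, 11.55 and 11.48 on day 1, 11.13 and 11.23 on day 3, 11.18 and 11.12 on day 5, 11.44 and 11.25 on day 7, 11.43 and 11.27 on day 10, and 11.58 and 11.58 on day 14. Ppp3cb had 12.42 and 12.52 on day 0, 11.89 and 11.93 on day 1, 11.43 and 11.40 on day 3, 11.59 and 11.45 on day 5, 11.61 and 11.46 on day 7, 11.54 and 11.44 on day 10, and 11.81 and 11.76 on day 14. Every overload array of both lay below day 0. Ppp3ca fell by 0.83 ± 0.09 on day 5 (adjusted p = 5.6e-06) and by 0.40 ± 0.09 on day 14 (adjusted p = 0.00282). Ppp3cb fell by 1.06 ± 0.08 on day 3, 2.08-fold (adjusted p = 3.1e-07), and by 0.69 ± 0.08 on day 14 (adjusted p = 1.9e-05).

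Ppp3r1, the regulatory subunit, had 10.87 and 10.84 on day 0, 10.27 and 10.27 on day 1, 10.21 and 10.21 on day 3, 10.22 and 10.39 on day 5, 10.47 and 10.49 on day 7, 10.34 and 10.44 on day 10, and 10.71 and 10.79 on day 14. It fell by 0.64 ± 0.08 on day 3 (adjusted p = 1.2e-05) and stood at -0.10 ± 0.08 on day 14 (adjusted p = 0.270), with all overload arrays below day 0. With equal array medians the day 14 difference was -0.22, which was called (adjusted p = 0.0288). Rcan1, the inhibitor whose promoter windows are shown above, had 11.18 and 11.19 on day 0, 12.51 and 12.59 on day 1, 11.90 and 11.78 on day 3, 11.33 and 10.99 on day 5, 11.51 and 11.10 on day 7, 11.23 and 11.06 on day 10, and 11.69 and 11.53 on day 14. Arrays of days 1, 3 and 14 lay above day 0 and those of days 5, 7 and 10 overlapped it. Rcan1 rose by 1.36 ± 0.14 on day 1, 2.57-fold (adjusted p = 4.5e-06), by 0.65 ± 0.14 on day 3 (adjusted p = 0.00140) and by 0.42 ± 0.14 on day 14 (adjusted p = 0.0208). On day 5 its difference was -0.03 ± 0.14 (adjusted p = 0.881). The day 14 call ended without the left pool of that day (0.34) and without either day 0 array (0.42 and 0.43). It also ended with equal array medians (0.30, adjusted p = 0.0610).

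The 4 CaMKII genes, which encode subunits of one kinase that calcium and calmodulin switch on, took different courses. Camk2a and Camk2g stayed lower on all 6 overload days, Camk2b was lower through day 7 and not called after it, and Camk2d rose. Camk2a, whose gene also gives a muscle scaffold protein of the reticulum, had 10.29 and 10.42 on day 0, 9.38 and 9.45 on day 1, 8.98 and 8.92 on day 3, 8.74 and 8.58 on day 5, 8.89 and 8.62 on day 7, 8.87 and 8.96 on day 10, and 9.11 and 8.99 on day 14. It fell by 1.69 ± 0.10 on day 5, 3.23-fold (adjusted p = 2.8e-08), and by 1.31 ± 0.10 on day 14, 2.47-fold (adjusted p = 4.9e-07), the largest of the 33 members on that day beside the 1.21 ± 0.15 of Slc8a3.

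Camk2g had 11.77 and 11.85 on day 0, 10.75 and 10.70 on day 1, 10.65 and 10.59 on day 3, 10.71 and 10.50 on day 5, 10.77 and 10.60 on day 7, 10.68 and 10.58 on day 10, and 10.88 and 10.93 on day 14. It changed little between overload days, with a fall by 1.20 ± 0.09 on day 5 (adjusted p = 1.9e-07) and by 0.91 ± 0.09 on day 14 (adjusted p = 4.2e-06). Camk2b, a prominent CaMKII gene of skeletal muscle, had 12.21 and 12.21 on day 0, 11.50 and 11.66 on day 1, 11.39 and 11.16 on day 3, 11.55 and 11.16 on day 5, 11.81 and 11.54 on day 7, 11.90 and 11.91 on day 10, and 12.22 and 12.27 on day 14. Its arrays lay below day 0 through day 10 and above it on day 14. Camk2b fell by 0.93 ± 0.13 on day 3 (adjusted p = 5.7e-05) and stood at 0.04 ± 0.13 on day 14 (adjusted p = 0.825). With equal array medians it was also lower on day 10 (-0.44, adjusted p = 0.00895). The unshifted day 10 difference of -0.30 lay near the threshold. It was called with a filter on low signals (adjusted p = 0.0499), with a variance trend (adjusted p = 0.0464) and from only the 4 arrays compared (adjusted p = 0.0161).

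Camk2d, the main CaMKII gene of the heart, had 10.72 and 10.76 on day 0, 10.76 and 10.83 on day 1, 11.02 and 10.94 on day 3, 11.07 and 10.99 on day 5, 11.23 and 11.07 on day 7, 11.29 and 11.10 on day 10, and 11.41 and 11.41 on day 14. All overload arrays lay above day 0. Camk2d rose by 0.67 ± 0.09 on day 14, 1.59-fold (adjusted p = 3.7e-05). The smaller rises on days 3 and 5 (0.23 and 0.29) were 0.14 and 0.16 with equal array medians (adjusted p = 0.173 and 0.103). On day 3 the call also ended without any pool of days 0 and 3 (between 0.20 and 0.27, adjusted p between 0.0591 and 0.169), and on day 5 without the left pool of day 0 (0.27, adjusted p = 0.0501) or of day 5 (0.25, adjusted p = 0.0747).

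Genes of calcium entry and exchange went separate ways. Stim1, the calcium sensor of the reticulum that opens store-operated entry, had 11.44 and 11.50 on day 0, 10.25 and 10.22 on day 1, 10.12 and 9.93 on day 3, 10.30 and 10.01 on day 5, 10.33 and 10.06 on day 7, 10.73 and 10.70 on day 10, and 10.90 and 10.89 on day 14. All overload arrays were below day 0, and the signal climbed most between days 7 and 10 (a difference of 0.52, adjusted p = 0.0395), when Stim1 was the only member called higher, where 0.933% of all genes were. It fell by 1.45 ± 0.11 on day 3, 2.73-fold (adjusted p = 2.6e-07), and by 0.57 ± 0.11 on day 14 (adjusted p = 8.5e-04). Orai1, the channel that Stim1 opens, had 9.27 and 8.97 on day 0, 8.86 and 8.99 on day 1, 9.05 and 9.06 on day 3, 9.10 and 9.04 on day 5, 9.14 and 9.08 on day 7, 9.22 and 9.23 on day 10, and 9.21 and 9.28 on day 14. Its arrays overlapped those of day 0 on every day, it was called on none, and the 95% interval of its day 5 difference ran from -0.25 to 0.15. These values depend on the scaling and on the day 0 arrays, which lay far apart: Orai1 was called lower after quantile normalization on days 5 and 7 (-0.22 and -0.21, adjusted p = 0.0398 and 0.0481), higher without the left pool of day 0 on days 10 and 14 (0.25 and 0.27, adjusted p = 0.0320 and 0.0262), and lower without the right pool of day 0 on day 1 (-0.34, adjusted p = 0.00932).

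Itpr3, a receptor for IP3 that releases calcium from the reticulum in many cell types, had 8.97 and 8.90 on day 0, 9.07 and 8.96 on day 1, 9.29 and 9.34 on day 3, 9.51 and 9.44 on day 5, 9.36 and 9.34 on day 7, 9.43 and 9.42 on day 10, and 9.29 and 9.17 on day 14. Arrays of days 3 to 14 lay above day 0. Itpr3 rose by 0.54 ± 0.07 on day 5 (adjusted p = 3.8e-05), and by 0.29 ± 0.07 on day 14 (adjusted p = 0.00535), where quantile normalization gave 0.14 (adjusted p = 0.121). It was the only member called lower on day 14 than on day 5, with a difference of -0.25 ± 0.07 (adjusted p = 0.0233).

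Slc8a3 and Slc8a1 encode sodium-calcium exchangers. Slc8a3, which skeletal muscle makes, had 10.88 and 10.85 on day 0, 9.67 and 9.83 on day 1, 8.84 and 8.66 on day 3, 9.20 and 8.77 on day 5, 9.23 and 8.82 on day 7, 9.54 and 9.50 on day 10, and 9.65 and 9.66 on day 14. Slc8a1, the main exchanger of the heart, had 8.91 and 8.86 on day 0, 7.76 and 7.88 on day 1, 8.64 and 8.62 on day 3, 8.92 and 8.92 on day 5, 8.91 and 8.83 on day 7, 8.97 and 8.90 on day 10, and 8.86 and 8.78 on day 14. Slc8a3 arrays lay below day 0 throughout, whereas Slc8a1 arrays were far below day 0 on day 1, slightly below on day 3 and close to it afterwards. After quantile normalization Slc8a1 was called lower on days 7 and 14 (-0.21 and -0.22, adjusted p = 0.0199 and 0.0182), and with equal array medians on day 14 (-0.18, adjusted p = 0.0417). Slc8a3 fell by 2.11 ± 0.15 on day 3, 4.33-fold (adjusted p = 1.3e-07), and by 1.21 ± 0.15 on day 14 (adjusted p = 2.4e-05). Slc8a1 fell by 1.06 ± 0.07 on day 1, 2.09-fold (adjusted p = 2.1e-07), and stood at 0.04 ± 0.07 on day 5 (adjusted p = 0.691). A second Slc8a1 probe set gave -0.43 on day 5, which was called, so the 2 probe sets disagree.

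The course between overload days was a step down by day 3 and a slow climb. Between days 1 and 3, 18 members were called lower, where 24.7% of all genes were, and 5 higher, where 19.5% were. Between days 3 and 5 the counts were 1 lower (1.9% of all genes) and 3 higher (4.68%), and between days 10 and 14 they were 0 lower (5.11%) and 6 higher (3.79%). Day 14 was higher than day 5 for 27 of 33 members, where 13.1% of all genes were, and lower for 1, where 14% were. Of the 23 members lower on day 5, 22 were higher on day 14 than on day 5, and 9 were no longer called lower than day 0, or 5 with equal array medians. All 14 members that were lower on every overload day were higher on day 14 than on day 5. Both the 23 and the 14 were picked partly by low values in the day 5 arrays. A comparison with those same arrays is therefore tilted toward a rise. The share that rose among all genes lower on day 5 was not computed, so these counts do not set the members apart.

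**Figure D3:**
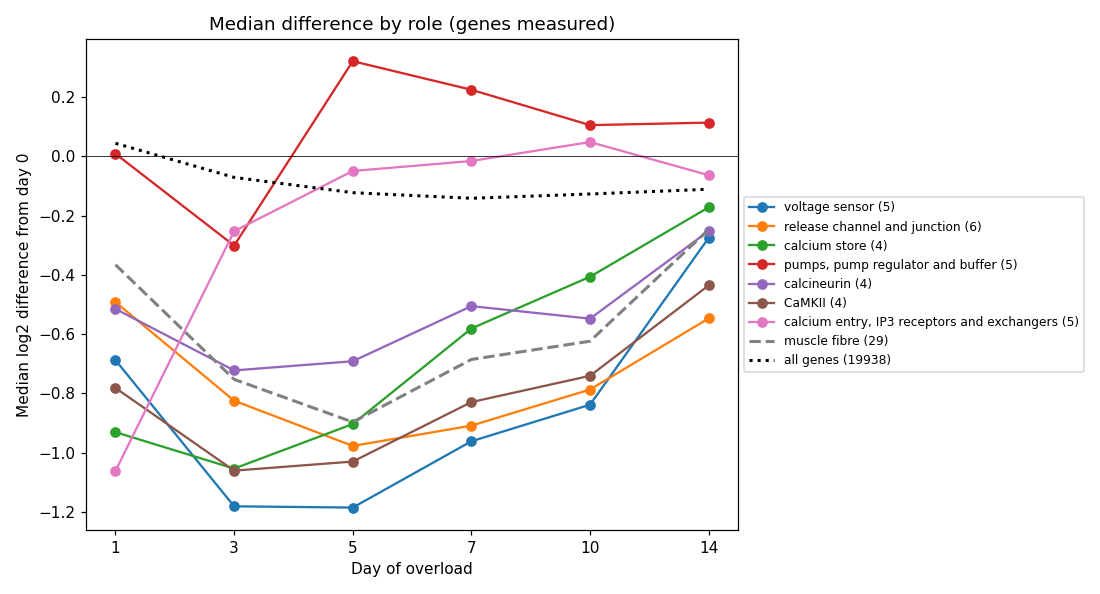
Median log2 difference from day 0 by day of overload for the measured members of each role, for 29 muscle fibre genes (dashed) and for all 19938 genes (dotted), with days spaced evenly. The medians of the voltage sensor, junction, store, calcineurin and CaMKII genes and of the fibre list are lowest on day 3 or 5 and nearer to 0 on day 14.

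Isoforms of a protein were compared within the same arrays, as the log2 signal of one gene minus that of the other, which removes any change the 2 genes share. For each of 6 pairs, the mean over the 12 overload arrays was set against the mean over the 2 day 0 arrays with an exact two-sided permutation test over 91 choices of 2 arrays. The smallest p this design allows is 0.0110, and p-values were adjusted over the 6 pairs. If the animals of a day are taken as the unit, 1 day stands against 6 and the smallest p is 0.143. The test shows unequal change of the 2 genes and not that either stayed the same, and each pair is a subtraction of probe set signals, whose level has no meaning of its own.

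The SERCA genes moved in opposite directions. Atp2a2 minus Atp2a1 was -2.65 and -3.11 on day 0, -2.31 and -2.53 on day 1, -1.76 and -1.33 on day 3, -1.42 and -1.22 on day 5, -1.30 and -1.31 on day 7, -1.34 and -1.26 on day 10, and -1.40 and -1.44 on day 14. All 12 overload arrays lay above both day 0 arrays, and the overload mean exceeded day 0 by 1.33 (exact permutation p = 0.0110, adjusted p = 0.0165). The difference was 0.46 on day 1 and between 1.33 and 1.58 on every later day. Without one of the day 0 arrays it was 1.10 or 1.56.

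CaMKII and exchanger genes also changed unequally. Camk2d minus Camk2b was -1.48 and -1.45 on day 0, -0.74 and -0.83 on day 1, -0.38 and -0.22 on day 3, -0.48 and -0.16 on day 5, -0.58 and -0.47 on day 7, -0.61 and -0.81 on day 10, and -0.81 and -0.86 on day 14. The overload mean exceeded day 0 by 0.89, with all 12 overload arrays above day 0 (exact permutation p = 0.0110, adjusted p = 0.0165), most on day 3 (1.16) and least on day 14 (0.63). Slc8a1 minus Slc8a3 was -1.97 and -1.99 on day 0, -1.91 and -1.95 on day 1, -0.20 and -0.04 on day 3, -0.28 and 0.15 on day 5, -0.32 and 0.01 on day 7, -0.57 and -0.61 on day 10, and -0.78 and -0.88 on day 14. On day 1 the change was 0.05, when both genes fell, and on days 3, 5 and 7 it was 1.86, 1.92 and 1.83. The overload mean exceeded day 0 by 1.37 (exact permutation p = 0.0110, adjusted p = 0.0165), and when the probe sets of each gene were averaged by 1.20 (adjusted p = 0.0791), which is not called.

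Calcineurin subunits differed by a small amount. Ppp3cb minus Ppp3ca was 0.52 and 0.47 on day 0, 0.34 and 0.44 on day 1, 0.31 and 0.17 on day 3, 0.42 and 0.33 on day 5, 0.17 and 0.21 on day 7, 0.10 and 0.17 on day 10, and 0.23 and 0.18 on day 14. All 12 overload arrays lay below day 0, and the overload mean differed by -0.24 (exact permutation p = 0.0110, adjusted p = 0.0165), or by -0.19 after quantile normalization (adjusted p = 0.0659).

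For the calsequestrins, Casq2 minus Casq1 was -4.06 and -4.12 on day 0, -5.15 and -5.10 on day 1, -2.83 and -2.76 on day 3, -1.91 and -1.58 on day 5, -1.79 and -1.70 on day 7, -1.85 and -1.70 on day 10, and -2.34 and -2.18 on day 14. The 2 arrays of day 1 lay below day 0 and the other 10 overload arrays above it. Over all overload arrays the difference from day 0 was 1.51 (exact permutation p = 0.0659, adjusted p = 0.0791), which is not called. By day it was -1.04 on day 1, 1.30 on day 3, and 2.34, 2.34, 2.31 and 1.83 on days 5, 7, 10 and 14. The junctophilins, Jph2 minus Jph1, differed from day 0 by 0.22 (exact permutation p = 0.440, adjusted p = 0.440), with -0.44 on day 1 and between 0.20 and 0.45 on later days.

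**Figure D4:**
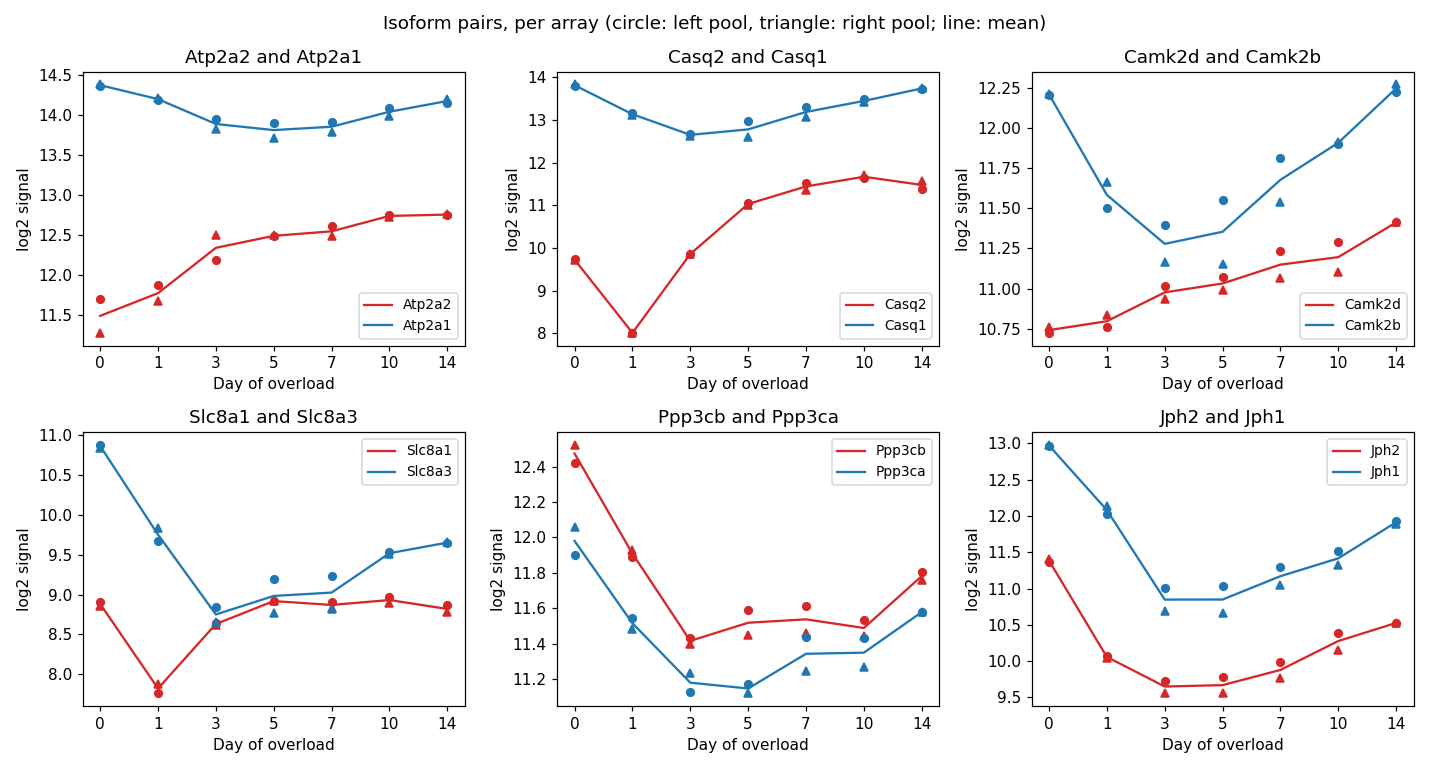
Log2 signal of both genes of each pair by day of overload, with circles for left and triangles for right pools, lines through the mean of the 2 arrays and days spaced evenly. The signals of different probe sets cannot be set against each other as levels, but the gap between the lines narrows under overload for SERCA (Atp2a2 and Atp2a1), CaMKII (Camk2d and Camk2b) and, from day 3 on, the calsequestrins and exchangers.

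Markers of the muscle fibre moved with the members. Of 29 measured fibre genes, among them actin, fast myosins and fast troponins, 17, 26, 27, 23, 24 and 12 were lower on the 6 overload days and 0 were higher. Of all genes, 22.6%, 26.6%, 33.7%, 36.3%, 34.3% and 30.5% were lower on these days. The fibre genes had medians of -0.37, -0.75, -0.90, -0.69, -0.62 and -0.25. Their log2 summed signal was 17.88 and 17.59 on day 5, against 18.51 and 18.52 on day 0, and their lowest single value was 9.65. Below the fibre median lay 22, 18, 15, 14, 15 and 15 of the 33 members on the 6 days. The part of fibre RNA in the fall of the members was not tested. Of 7 slow fibre genes, 4 were higher and 3 lower on day 5, and 5 were higher and 1 lower on day 14. Their log2 summed signal was 14.31 and 14.25 on day 14, against 13.38 and 13.01 on day 0, and their part in the rise of Atp2a2, Casq2 and Sln was not tested.

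Slow fibre genes did not move as 1 group. Tnni1, slow troponin I, differed by 2.22 ± 0.20 on day 5 and 2.51 ± 0.20 on day 14 (adjusted p = 6.2e-07). Myh7, the slow myosin heavy chain, differed by -1.43 ± 0.37 on day 5 (adjusted p = 0.00491) and 1.03 ± 0.37 on day 14 (adjusted p = 0.0327). Other cell types also moved: 14 of 14 macrophage genes were higher on days 3 and 5, 13 of 14 on day 14, 8 of 10 fibroblast genes on day 5, and 6 of 8 satellite cell and myoblast genes on day 5. Of all genes, 24.1% were higher on day 3, 26.4% on day 5 and 22.9% on day 14, and 33.7% were lower on day 5. The macrophage log2 summed signal was 15.78 and 15.82 on day 5, against 13.44 and 13.00 on day 0. These cells also make Atp2a2, Atp2b1, Asph and Itpr3, and their part in those values was not tested. Of 9 smooth muscle and pericyte genes, 8 were lower and 0 higher on day 1, and 6 were higher and 3 lower on day 5. Of 9 endothelial genes, 5 were lower and 1 higher on day 1, and 6 were higher and 2 lower on day 5. On day 1, 22.6% of all genes were lower and 22.3% higher. The part of vessel cells in the values of the members was not tested either. Of the 7 cardiomyocyte genes, 1 was higher and 5 lower on day 5, and the higher one was Myl4, an embryonic and atrial myosin light chain (2.34 ± 0.08, adjusted p = 6.5e-10).

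Of 80 other genes of calcium handling listed by function, 72 were measured. Their counts of higher and lower calls were 14 and 33 on day 1, 17 and 35 on day 3, 20 and 38 on day 5, 21 and 38 on day 7, 20 and 37 on day 10, and 21 and 30 on day 14, with a median difference of -0.26 on day 5, where all genes had -0.12. Of all genes, 22.6%, 26.6%, 33.7%, 36.3%, 34.3% and 30.5% were lower on the 6 overload days. The shares of all genes called higher were 22.3%, 24.1%, 26.4%, 26.6%, 25.9% and 22.9%. On days 1 to 10 the higher counts of the list lie near these last shares. Among 15 T-tubule and triad genes, 12 were lower on day 5 and 1 was higher. Among 6 measured genes of mitochondrial calcium uptake, 4 were lower and 0 higher on day 5. Among 15 calcineurin and NFAT genes, 6 were lower and 3 higher on that day, counts that lie near the shares over all genes. Among 11 genes of other CaM kinases and their targets, 5 were lower and 5 higher. In so small a group, these counts were not tested against the shares over all genes.

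The deepest falls in that list included regulators and scaffolds of the proteins above. Pln encodes phospholamban, which inhibits SERCA2, and had 9.19 and 8.86 on day 0, 7.75 and 7.96 on day 1, 7.42 and 7.62 on day 3, 7.93 and 7.30 on day 5, 7.14 and 6.98 on day 7, 7.35 and 7.00 on day 10, and 7.63 and 7.77 on day 14. It fell by 1.97 ± 0.19 on day 7, 3.91-fold (adjusted p = 1.9e-06), while Sln rose, and all overload arrays lay below day 0. Rcan2, a relative of Rcan1, had 10.68 and 10.51 on day 0, 9.15 and 9.21 on day 1, 9.07 and 8.94 on day 3, 9.07 and 8.64 on day 5, 9.03 and 8.80 on day 7, 9.07 and 8.70 on day 10, and 9.53 and 9.19 on day 14. It fell by 1.74 ± 0.16 on day 5 (adjusted p = 1.4e-06), a day on which Rcan1 was not called.

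Homer1 and Homer2 encode scaffolds that bind calcium channels and receptors. Homer1 fell by 1.69 ± 0.11 on day 5 (adjusted p = 7.3e-08) and Homer2 by 1.42 ± 0.12 (adjusted p = 5.0e-07). Atp2b3, a plasma membrane calcium pump, fell by 1.62 ± 0.12 on day 3 (adjusted p = 1.9e-07), while Atp2b1 had 0.29 ± 0.08 on that day (adjusted p = 0.00735, and 0.0509 with equal array medians). Ryr3, a second ryanodine receptor of skeletal muscle, fell by 1.51 ± 0.08 on day 3 (adjusted p = 1.0e-08).

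The largest rises were those of Fkbp1b, Camk4, Sri, Camk1d, Dapk1 and Orai2. Fkbp1b encodes a binding protein of the ryanodine receptor and had 6.88 and 6.89 on day 0, 7.23 and 7.43 on day 1, 8.38 and 8.30 on day 3, 8.26 and 8.26 on day 5, 8.42 and 8.49 on day 7, 8.58 and 8.54 on day 10, and 8.24 and 8.10 on day 14. It rose by 1.67 ± 0.08 on day 10, 3.19-fold (adjusted p = 8.6e-09), and all overload arrays lay above day 0. Camk4, a CaM kinase known from neurons and lymphocytes, rose by 1.43 ± 0.19 on day 10 (adjusted p = 3.3e-05), with 8.48 and 8.09 on day 10, against 7.03 and 6.68 on day 0. Of 8 T and B cell genes, 4 were higher and 2 lower on day 10, where 25.9% of all genes were higher and 34.3% lower. The part of T and B cells in the rise of Camk4 was not tested.

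Sri encodes sorcin, a calcium-binding partner of the ryanodine receptor, and rose by 1.24 ± 0.09 on day 7 (adjusted p = 2.6e-07). Camk1d, another CaM kinase, rose by 1.21 ± 0.11 on day 5 (adjusted p = 8.2e-07). Dapk1, a death-associated kinase that calmodulin binds, rose by 1.18 ± 0.10 on day 14 (adjusted p = 1.1e-06). Orai2, a relative of Orai1, rose by 1.08 ± 0.08 on day 10 (adjusted p = 4.0e-07), where Orai1 had 0.11 ± 0.09 (adjusted p = 0.334).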

How the data were processed

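RNA of pooled plantaris muscles was read on 14 arrays (Affymetrix Mouse Gene 1.0 ST). Each deposited value is the log2 signal of 1 probe set, already normalized between arrays. Partek is named without a version in the submitters' processing notes, and how the arrays were normalized is not given in the sources used. Of 35557 probe sets, the annotation gave 21789 a single symbol, 1621 several and 12147 none. For the 999 genes with several probe sets, the one with the highest mean stood for the gene, which left 19938 genes, with no filter on low values. There are no detection calls, and precision is limited by having 2 arrays a day. Itpr1 and its pair with Itpr3 were not analysed here.

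Day was the only factor of the linear model, fitted with limma 3.58.1 (R 4.3.3) over the 14 arrays (residual degrees of freedom 7, prior 4.95; standard errors had a median of 0.097). Two-sided p-values got a Benjamini-Hochberg adjustment over the genes of each comparison. Values in every array are given for members called by the F test and for Cacng1 and Orai1, which are compared with them, and of the other calcium genes the 6 largest rises and 6 largest falls were named. The members, roles, lists, pairs and rules were chosen with earlier results of these data known.

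As a check of pairing, the differences of right from left were correlated over genes for 21 pairs of days: r lay between -0.19 and 0.35, the median was 0.07 and 6 exceeded 0.1, so the side entered as a block only in an alternative. Other alternatives were quantile normalization, equal array medians, a filter on low signals, each probe set on its own, probe sets averaged per gene, a variance trend, array weights, only the 4 arrays compared, a stricter threshold and each array left out in turn. On simulated data for day 5 over 19938 genes, the fit found 4 of 50 genes with a log2 change of 0.25 and 25 of 50 at 0.5. It found 49 of 50 at 1 and 50 of 50 at 2, with 4 unchanged genes called. Only 50 genes were changed at each size, while 33.7% of all genes were called lower and 26.4% higher on the real day 5. The adjusted threshold was therefore stricter in the simulation, and its rates do not carry over to these data. Promoter windows came from RefSeq.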

Additional observations from a re-analysis of the deposited data

How the results depend on the processing

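The results for 33 members on 6 days were recomputed under 24 alternatives. Of 4752 values, 4624 kept their side of the threshold, 79 fell short of it, 49 passed it and 0 changed sign in a called value. Values that were not called could change sign, as that of Slc8a1 on day 5 did, from 0.04 to -0.20 with probe sets averaged. The number of members higher on day 3 was 5, but 3 with equal array medians and 3 without the right pool of day 3, and on day 14 it was 7, but 4 with equal array medians. Quantile normalization gave -0.185 for Ppp3cb minus Ppp3ca (adjusted p = 0.0659) and 1.23 for Slc8a1 minus Slc8a3 (adjusted p = 0.0989), and averaging the probe sets of each gene gave 1.20 for Slc8a1 minus Slc8a3 (adjusted p = 0.0791). With each array left out, the pair differences ranged from 1.10 to 1.56 for Atp2a2 minus Atp2a1, 0.85 to 0.91 for Camk2d minus Camk2b, 1.42 to 1.75 for Casq2 minus Casq1, 0.19 to 0.28 for Jph2 minus Jph1, -0.26 to -0.21 for Ppp3cb minus Ppp3ca and 1.30 to 1.49 for Slc8a1 minus Slc8a3. Without a day 0 array no pair can pass, since 1 array then stands against 12 (adjusted p = 0.115), and Casq2 minus Casq1 passed without either day 1 array (adjusted p = 0.0462). With each array left out, members higher numbered 2 to 3 on day 1, 3 to 5 on day 3, 4 to 6 on day 5, 5 to 6 on day 7, 5 to 6 on day 10 and 5 to 7 on day 14, and members lower 22 to 25, 22 to 24, 22 to 23, 22 to 23, 18 to 22 and 13 to 16. On day 10 the calls of Cacnb1 and Casq1 were lost when that day's right pool was left out (-0.27 and -0.33, adjusted p = 0.116 and 0.0725), that of Trdn when its left pool was (-0.25, adjusted p = 0.0974), and all 3 without the right pool of day 0 (adjusted p between 0.0547 and 0.0686). Those of Jsrp1 on day 1 and Slc8a1 on day 3 were lost without a day 0 array (adjusted p = 0.0680 and 0.0630). In the fit with the side as a replicate block, 24, 24, 23, 22, 21 and 14 members were lower and 32 were called by the F test; the block changed no member's call against day 0 and left Atp2a2 minus Atp2a1 at an adjusted p of 0.0306. The causes of these changes were not tested. The simulation held far fewer changed genes than these data. How reliably 2 arrays a day recover changes of 0.25 on the log2 scale here was not tested.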

Other observations

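Left and right pools differed in the members on some days. The right pool was below the left in 29 of 33 members on day 5, with a median difference of -0.21 on the log2 scale, and in 31 of 33 on day 7, with a median of -0.18. On day 0 it was below in 10 of 33, with a median of 0.03. Fibre genes moved alike on day 5, when their mean log2 signal was 12.38 in the right and 12.75 in the left pool, against 13.54 and 13.53 on day 0. The labels name no reason for this and none was tested.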
